A study of Homo sapiens with 8 samples.

Results

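GFI1, 4 Ikaros family members (IKZF1, IKZF2, IKZF4 and IKZF5), GATA2, LMO2, LMO4, ZEB2 and WT1 encode nuclear regulators of blood cell formation, and their loci were examined in a list of PML::RARA binding sites. The sites were mapped by Cut&Run, in which an antibody brings a nuclease to a protein in isolated nuclei and the released DNA is sequenced. The cells were U937-PR9, a monocytic line with a PML::RARA transgene under a zinc-inducible promoter, given 100 μM ZnSO4 for 5 h (induced) or water (uninduced). An antibody against PML::RARA and one against RARA were each used on 2 replicates of either condition, which gave 8 libraries. The values below come from the anti-PML::RARA list of the induced cells, and the peaks of uninduced cells and of the anti-RARA antibody were not analysed here. Every induced library received zinc, so effects of zinc and of PML::RARA cannot be told apart.

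A peak belonged to the set when its promoter label, a gene symbol deposited by the authors, was 1 of the 10 genes. A peak without any label was added when its centre lay within 50 kb of the centre of such a peak on the same chromosome. This gave 13 of the 15412 peaks of the list, 9 with a label and 4 without. The labels fell on 6 of the 10 genes, GFI1, IKZF1, IKZF4, IKZF5, LMO2 and LMO4. IKZF2, GATA2, ZEB2 and WT1 had no labelled peak. Each peak has 1 width, 1 total signal and 1 height (the peak's largest signal), and none of these is given per replicate. No spread between replicates and no test between conditions can therefore be given, and the sequencing depth is unknown.

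GFI1 is a zinc finger repressor that granulocyte differentiation requires, and it recruits the demethylase KDM1A and its RCOR partners. Ikaros proteins, of which IKZF1 is the founding member, IKZF2 is Helios, IKZF4 is Eos and IKZF5 is Pegasus, are zinc finger factors that act in lymphoid and myeloid cells, in part through the nucleosome remodelling complex NuRD. GATA2 maintains blood stem and progenitor cells. LMO2 binds no DNA itself and bridges GATA factors and TAL1 or LYL1 through the adaptor LDB1, and LMO4 is a related LIM-only protein. ZEB2 binds E-boxes and recruits CtBP corepressors, and WT1 is a zinc finger factor often highly expressed in acute myeloid leukemia.

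The sequence under the peak apex is shown for peaks that are the widest or highest, hold several of the sites searched for or hold a retinoid half-site. All sequences are from GRCh37, the build of the list (hg19), and run 5′ to 3′ on the strand of the gene. Capitals mark exact matches on either strand to the ETS site (AGGAAGT or CGGAAGT), the RUNX site (TGTGGT), the C/EBP site (TTGCNNCA or TTGCNNAA), the GATA site (AGATAA), the Ikaros site (TGGGAA), the GFI1 site (AATCNC) and the retinoid half-site (AGGTCA or AGTTCA). The AP-1 site (TGANTCA) was also searched for and had no match within 200 bp of any of the 13 apices. The stretches were chosen after the matches were seen, and they do not hold every match within 200 bp of the apex. The ETS site of the peak within GFI1, a RUNX site of the highest LMO2 peak and a C/EBP site of the IKZF1 promoter peak lie outside the printed letters. The first sequence is the apex of the GFI1 promoter peak, with 1 retinoid half-site (chr1:92952514-92952664, minus strand). The second is the apex of the peak within GFI1, where the RUNX site overlaps a C/EBP site at the end (chr1:92941858-92942157, minus strand). The third is the peak upstream of IKZF1 with the greater height (chr7:50306477-50306776, plus strand). The fourth is a stretch of 30 bases at the apex of the IKZF1 promoter peak, with an ETS and an Ikaros site (chr7:50344256-50344285, plus strand). The fifth is the IKZF4 promoter peak (chr12:56414648-56414798, plus strand), and the sixth is the highest LMO2 peak (chr11:33915327-33915626, minus strand).
GFI1 promoter peak: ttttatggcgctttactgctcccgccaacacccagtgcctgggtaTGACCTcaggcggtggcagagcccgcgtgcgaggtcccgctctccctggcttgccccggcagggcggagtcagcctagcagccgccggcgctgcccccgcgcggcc
GFI1 internal peak: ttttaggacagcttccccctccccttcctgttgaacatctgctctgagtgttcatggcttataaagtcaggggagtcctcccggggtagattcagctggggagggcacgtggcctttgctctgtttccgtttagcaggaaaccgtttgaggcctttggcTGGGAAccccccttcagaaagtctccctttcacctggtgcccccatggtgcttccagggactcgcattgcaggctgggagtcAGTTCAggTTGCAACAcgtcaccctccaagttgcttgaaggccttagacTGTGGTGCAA
IKZF1 upstream peak: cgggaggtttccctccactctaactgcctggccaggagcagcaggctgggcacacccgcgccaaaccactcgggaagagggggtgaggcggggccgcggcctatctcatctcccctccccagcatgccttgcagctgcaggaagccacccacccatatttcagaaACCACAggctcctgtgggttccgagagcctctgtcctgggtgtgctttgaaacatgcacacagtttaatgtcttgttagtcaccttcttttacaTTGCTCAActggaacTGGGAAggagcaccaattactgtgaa
IKZF1 promoter peak: cAGGAAGTcattgtgaaagaaagcTGGGAA
IKZF4 promoter peak: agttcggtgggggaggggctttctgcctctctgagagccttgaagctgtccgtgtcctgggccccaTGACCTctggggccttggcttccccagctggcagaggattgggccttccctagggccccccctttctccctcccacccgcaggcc
LMO2 highest peak: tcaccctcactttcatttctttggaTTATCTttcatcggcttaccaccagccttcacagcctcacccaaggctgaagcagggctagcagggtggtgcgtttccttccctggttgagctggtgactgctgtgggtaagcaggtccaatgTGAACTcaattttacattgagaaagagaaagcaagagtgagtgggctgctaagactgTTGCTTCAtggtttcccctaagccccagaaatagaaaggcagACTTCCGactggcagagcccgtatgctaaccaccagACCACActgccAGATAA

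GFI1 (ENSG00000162676, minus strand of chromosome 1 from 92938600 to 92952482) carried 1 of the widest peaks of the list. Its promoter peak lay from 92947319 to 92952792, a width of 5474 bp, which is rank 12 of the 15412 peaks. Only 0.153% of the 7169 labelled peaks were at least as wide. Its height was far less extreme, at 34, above 75.9% of all peaks and rank 3401, where peaks of equal height share the best rank. The total signal of 58405 was rank 42. The apex lay 107 bp upstream of the canonical start site and 203 bp from the upstream edge of the peak, and the other 5270 bp of the peak reached downstream. In this span lay exons 1, 2 and 3 of the 7 exons of the canonical transcript and 6 of the 7 annotated start sites. The peak held 393 CpG dinucleotides, or 7.18 per 100 bp.

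Further into GFI1, a peak without a label had the greatest height of the 13. It lay from 92941356 to 92942269 with its apex in intron 6 and reached into exon 7. Its height of 46 exceeded that of 92.8% of all peaks (rank 989) and its width of 914 bp that of 55.8% (rank 6804). The promoter peak was thus wider and the internal peak higher. The internal peak was poorer in CpG dinucleotides, with 1.97 per 100 bp. No other peak lay within 150 kb of the gene.

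IKZF1 (ENSG00000185811, plus strand of chromosome 7 from 50343664 to 50472799) had 1 labelled peak, from 50343610 to 50345080. Its height was 38, above 83.6% of the peaks (rank 2313), and its width 1471 bp, above 82.4% (rank 2712). The peak covered 9 of the 18 annotated start sites, and its apex lay 34 bp upstream of the canonical one, in an untranslated exon of another transcript. With 9.99 CpG per 100 bp and 5 GGGCGG boxes within 200 bp of the apex, it had the sequence of a CpG-rich promoter. Both unlabelled IKZF1 peaks of the set lay upstream of the gene. The peak from 50306235 to 50307109, 37.7 kb upstream of the canonical start, was 44 high (rank 1234) and 875 bp wide (rank 7203). The peak from 50321239 to 50322034, 22.7 kb upstream, was 26 high (rank 6677) and 796 bp wide (rank 8099). The farther of these was higher than the promoter peak and the nearer was lower. They held 1.37 and 1.51 CpG per 100 bp.

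IKZF1 had more unlabelled peaks within 150 kb than any other of the 10 genes, 11 with both of these, and 9 of them lay beyond the 50 kb limit. The same count was not made for all protein-coding genes, so whether 11 is many is not known. In intron 3 lay a peak of height 34 (50423967 to 50424836) and a peak of height 33 (50430430 to 50430880). A group of 7 lay more than 80 kb upstream, from 50206665 to 50257891, and 3 of these reached heights of 46, 47 and 50. The last, from 50224660 to 50225489, was above 95.4% of all peaks in height and was the highest peak within 150 kb of the gene. The peaks of heights 46 and 47 had their apex within another annotated gene, ENSG00000231681, as did those of heights 21 and 23. These peaks have no label, and which gene they act on was not tested.

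The other labelled Ikaros genes, IKZF4 and IKZF5, carried low and narrow peaks. The IKZF4 peak (chromosome 12, 56414388 to 56414970) was 19 high (rank 11488) and 583 bp wide (rank 10814), with its apex 104 bp upstream of the canonical start site. IKZF4 (ENSG00000123411) is in a stretch dense with peaks. Within 150 kb of it lay 12 peaks labelled for other genes, and the promoter peak of RAB5B, 71 in height, was the highest of them. SUOX, upstream of IKZF4, had a peak of height 18. A peak of height 37 labelled RPS26 began at 56435359, downstream of the end of IKZF4 at 56432219. The IKZF5 peak (ENSG00000095574, chromosome 10, 124768104 to 124768623) was 20 high (rank 10691) and 520 bp wide (rank 11717). Its apex lay 152 bp upstream of the canonical IKZF5 start and 32 bp from a start site of ACADSB, which is transcribed in the other direction, so the peak cannot be assigned to either gene alone. IKZF2 (ENSG00000030419, chromosome 2 from 213864415 to 214017151) had no peak within 150 kb. The nearest peak of the list lay 1657 kb away, and 1.76% of protein-coding genes on the chromosomes with peaks were as far from a peak or farther.

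LMO2 (ENSG00000135363, minus strand of chromosome 11 from 33880122 to 33913623) had 4 labelled peaks. Of the 6546 genes with a label, 0.183% had 4 or more. The 4 peaks were of unlike shape. The one within the gene, from 33890741 to 33892492, was the widest at 1752 bp (rank 1614), and its height of 17 was among the lowest of the list (rank 13294). Its apex lay 138 bp downstream of an internal start site, in intron 2 of the canonical transcript, and the peak covered 4 of the 6 annotated start sites and was CpG-rich, with 8.85 per 100 bp. The peak at the 5′ end, from 33912921 to 33913746, had its apex 1 bp from the canonical start site and was 23 high (rank 8433) and 826 bp wide (rank 7734). Next came a peak from 33914366 to 33914984 that was 16 high (rank 14278) and 619 bp wide (rank 10310), whose apex lay 1181 bp upstream of the start. The highest, from 33915098 to 33915920, had its apex 1887 bp upstream and was 36 high (rank 2815) and 823 bp wide (rank 7765). Its mean signal of 15.2 per base was the largest of the 13 peaks.

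Thus at LMO2 the strongest signal lay upstream of the annotated start sites, while the wide peak over the internal start sites was low. The 3 peaks at and above the 5′ end lay less than 1 kb apart. Counted as a single peak, they would leave LMO2 with 2 labelled peaks. The unlabelled LMO2 peak, from 33933912 to 33934589, lay 20.4 kb upstream of the canonical start and was 23 high (rank 8433) and 678 bp wide (rank 9507). LMO4 (ENSG00000143013, plus strand of chromosome 1 from 87794563 to 87814606) had 1 peak within 150 kb, from 87793911 to 87794388. This peak ended 175 bp before the gene, and its height of 19 (rank 11488) and width of 478 bp (rank 12348) placed it below most of the list on both measures.

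**Figure D1:**
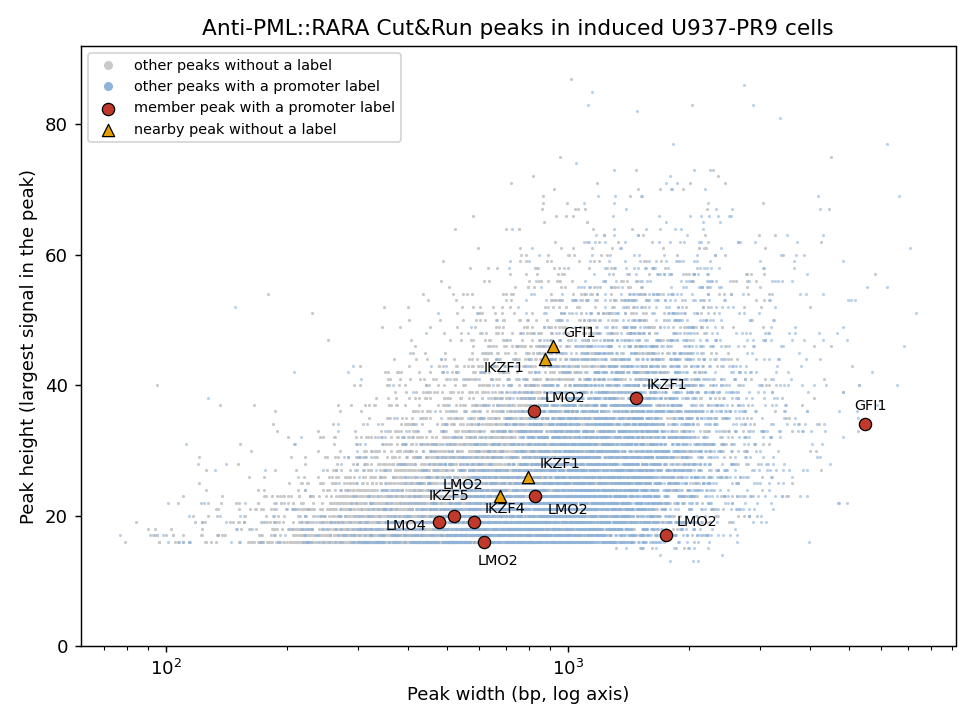
Height (largest signal in the peak) against width (bp, log axis) of all 15412 peaks, grey without and blue with a promoter label, with the 9 labelled peaks of the 10 genes as red circles and the 4 nearby unlabelled peaks as orange triangles. The GFI1 promoter peak stands at the right edge with a width of 5474 bp, and the labelled peaks of LMO4, IKZF4 and IKZF5 lie at heights of 19 to 20 and widths of 478 to 583 bp.

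Among the 4 genes without a label, only WT1 (ENSG00000184937, minus strand of chromosome 11 from 32409321 to 32457110) had a peak over the gene. It lay in intron 3 (32442377 to 32443094), was 22 high and 718 bp wide, and its edge lay 3234 bp from the nearest of the 21 annotated WT1 start sites. GATA2 (ENSG00000179348, minus strand of chromosome 3 from 128198270 to 128212044) had none over the gene. Its 4 peaks within 150 kb all lay upstream. The nearest, from 128242024 to 128243690, had its apex 30.7 kb upstream of the canonical start and was 30 high and 1667 bp wide. The highest, from 128322187 to 128323693, had its apex 111 kb upstream, was higher than 83.6% of all peaks at 38, and was 1507 bp wide. Distal enhancers of GATA2 are known on this side of the gene, and whether these peaks cover one was not tested. ZEB2 (ENSG00000169554, minus strand of chromosome 2 from 145121931 to 145278624) was likewise free of peaks. Beyond its 3′ end, 31.2 kb away, lay a peak of height 17 labelled GTDC1. Upstream, a peak of height 48 (145417047 to 145417900), above 94.2% of all peaks, had its apex 140 kb from the canonical start, next to one of height 17.

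**Figure D2:**
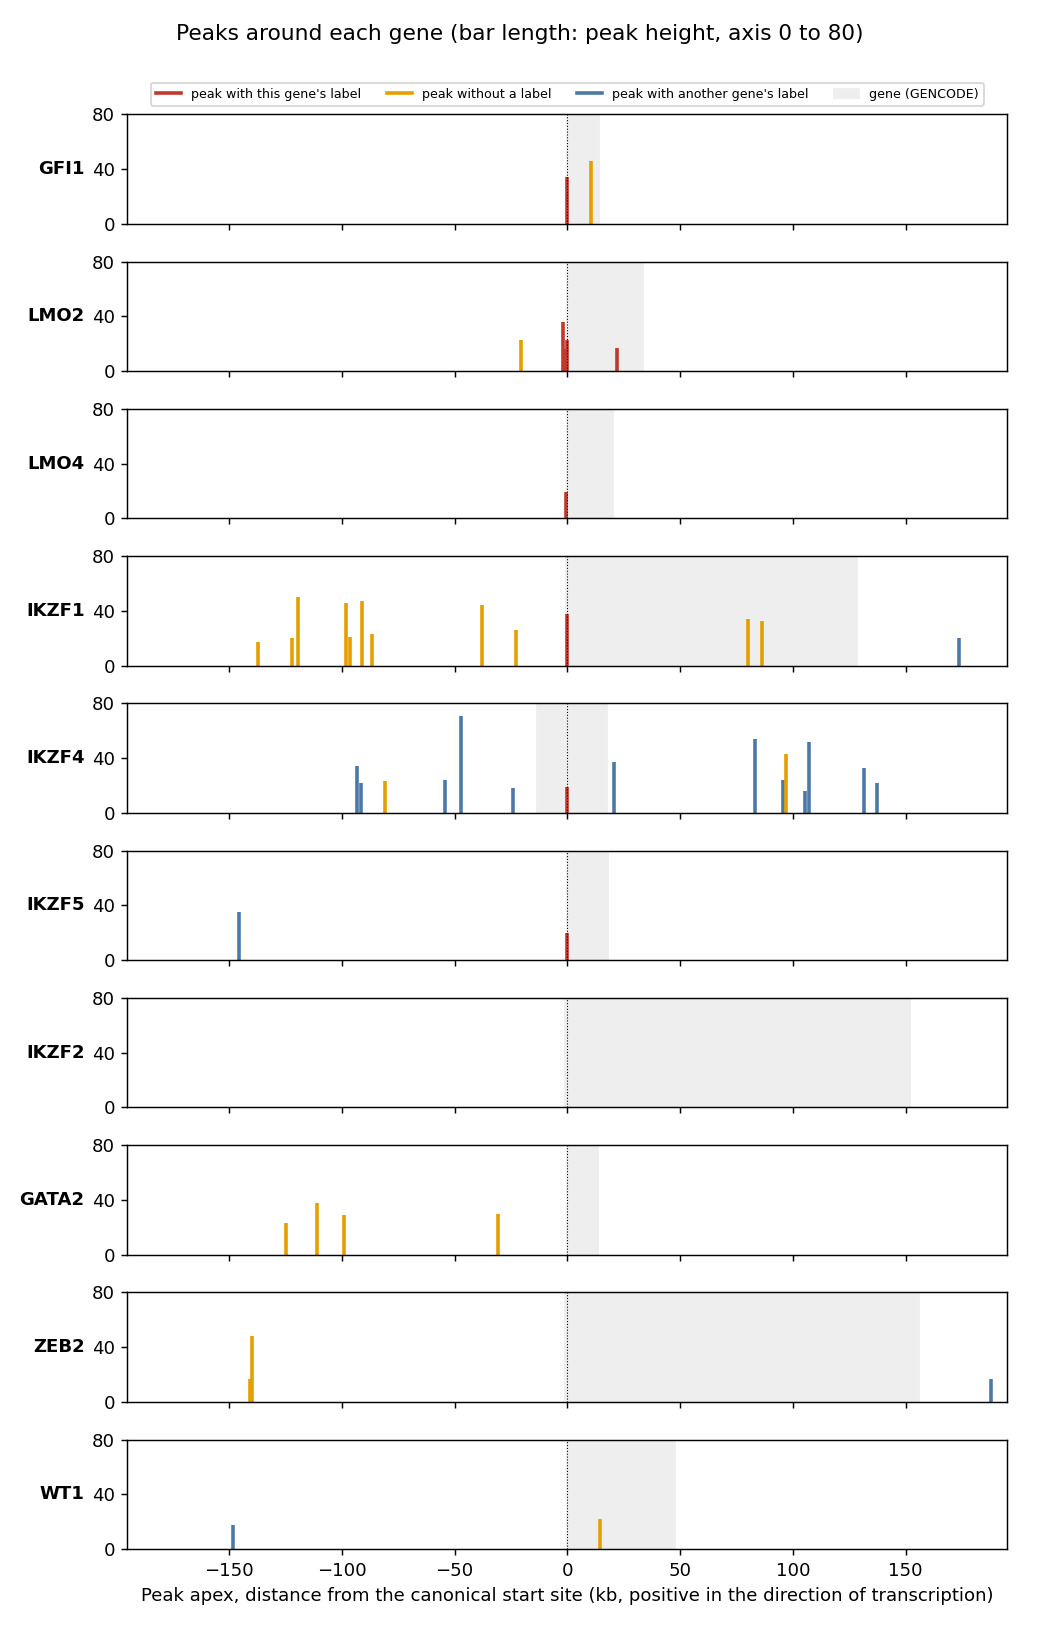
Peaks within 150 kb of each of the 10 genes, by the distance of the apex from the canonical start site (kb, positive in the direction of transcription), with bars as long as the peak height. Red bars carry the label of the gene, orange bars no label and blue bars the label of another gene, and the grey area is the gene. IKZF1 has 11 orange bars, IKZF4 12 blue bars, and IKZF2 has none.

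A promoter label at 6 of 10 genes compares with 29.9% of the 20149 protein-coding genes of GENCODE. With an apex within 1 kb of a gene's own start sites in place of the label, the 6 of 10 stayed the same number and the share of all protein-coding genes was 39.2%. Peaks that overlapped the gene or lay at most 10 kb from it were found for 7 of the 10 genes and for 53.2% of all protein-coding genes. The genes were chosen with results of these data known, so no test was made of these counts. Of the 7169 labelled peaks, 48.5% had an unlabelled peak within 50 kb. Of the 9 labelled peaks here, 6 had one, those of GFI1 and IKZF1 and all 4 of LMO2, which share the same unlabelled peak. The peaks of IKZF4, IKZF5 and LMO4 had none.

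The 9 labelled peaks were mostly below the middle of all labelled peaks. Their median height was 20 (range 16 to 38) against 26 for all labelled peaks, and 3 of the 9 were above 26, those of GFI1 and IKZF1 and the highest of LMO2. Their median width was 823 bp (range 478 to 5474) against 1108 bp, and again 3 of the 9 were above it, those of GFI1 and IKZF1 and the internal peak of LMO2. The 4 peaks of LMO2 weigh on these medians. With the highest peak of each gene, the median height was 27, equal to the median of 27 over all 6546 labelled genes. The 4 unlabelled peaks had a median height of 35 against 23 for all unlabelled peaks, and their median width was 835.5 bp against 634 bp.

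The sites of blood cell factors were counted within 200 bp of each apex, in windows of 401 bp, and set beside the same count over all peaks. An ETS site lay in 3 of the 13 windows, at the IKZF1 promoter, the internal GFI1 peak and the highest LMO2 peak, against 29.5% of all peaks. The RUNX site was found in 3 of 13 windows (28.7% of all peaks) and the C/EBP site in 6 of 13 (31.0%). By label status, the RUNX site lay in 1 of 9 labelled and 2 of 4 unlabelled windows, against 15.4% of all labelled and 40.3% of all unlabelled peaks. The C/EBP site lay in 4 of 9 and 2 of 4, against 21.4% and 39.3%. The AP-1 site was found in 0 of 13, against 17.7% of all peaks, 7.41% of labelled and 26.7% of unlabelled ones. Among the 13 windows, the GATA site was present only in that of the highest LMO2 peak, with 2 matches, and it lay in the windows of 9.75% of all peaks. That window also held an ETS site, 2 RUNX sites, a C/EBP site and a retinoid half-site, or 7 matches in all to the kinds of site marked in capitals in the sequences. It was the window with the most matches among the 13, and matches per window were not counted over all peaks. In windows 2 kb to the side of the apices, toward lower coordinates, the ETS site was found in 2 of 13 and in 9.33% over all peaks. Not all of these windows lay outside peaks. That of the GFI1 promoter peak fell within the same wide peak, and that of the highest LMO2 peak within the labelled peak at the 5′ end of LMO2. The side window of the LMO2 peak from 33914366 overlapped that 5′ peak in part. Over all peaks the C/EBP site was about as frequent to the side (30.6%) as at the apex, and several sites were more frequent to the side, the GATA site with 19.5%, the GFI1 site with 57.9%, CAGGTG with 38.3% and the retinoid half-site with 46.5%. The 13 windows are too few for more than a description.

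Sites of the regulators themselves were also present. The Ikaros site lay in 5 of 13 windows, among them all 3 IKZF1 peaks (29.5% of all peaks). In the windows 2 kb to the side it lay in 1 of 13 and in 30.9% over all peaks, about as often as at the apex over all peaks. The GFI1 site lay in 6 of 13 (38.5%) and in neither GFI1 window. Over its whole width of 5474 bp, the GFI1 promoter peak held 5 matches to the GFI1 site, and the whole internal GFI1 peak of 914 bp held 0. At such unlike widths these counts cannot be compared, and whole peaks of the list were not counted. The E-box CAGGTG, to which ZEB proteins bind, was found in 3 of 13 (25.5%). A retinoid half-site lay in 4 of 13 windows, both GFI1 peaks, the IKZF4 peak and the highest LMO2 peak, against 34.8% of all peaks. The share was 24.8% of labelled and 43.5% of unlabelled peaks. No window of the 13 held a pair of these half-sites up to 8 bases apart in any orientation, and 1.10% of all peaks did. A match is a description of the letters and not a measured site. GGGCGG, bound by SP and KLF proteins, lay in 5 of the 9 labelled windows against 76.2% of all labelled peaks. The median GC content of these 9 windows was 60.8%, against 64.3% for all labelled peaks.

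The relatives and the partners of the 10 genes differed in their labels. Of 10 family paralogs (GFI1B, IKZF3, GATA1, GATA3, GATA4, GATA5, GATA6, LMO1, LMO3 and ZEB1), 0 had a promoter label and 0 an apex within 1 kb of a start site. The shares of all protein-coding genes were 29.9% and 39.2%. Of these paralogs, 3 had a peak at most 10 kb from the gene or over it, against 53.2% of all protein-coding genes. IKZF3, which encodes Aiolos, had one of height 41 that ended 2504 bp from the gene. The one near GATA1 was labelled HDAC6, with a height of 46, and LMO1 had one of height 16 over the gene. LMO3 and GATA3 were 1745 kb and 537 kb from the nearest peak. Their expression in these cells was not measured here.

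The cofactors were labelled more often than protein-coding genes at large. The LMO2 list held genes of the complex built by LMO2 and also RUNX1, FLI1 and ERG, DNA-binding factors that are not core parts of that complex. In this list, 8 of 12 genes had a label, the adaptor LDB1, LYL1, TCF3, CBFA2T3, SSBP2, SSBP3, RUNX1 and FLI1. TAL1, TCF12, TCF4 and ERG had none. The 3 highest peaks of this list were those of RUNX1 with heights of 74 and 48 and of LYL1 with 51, and the median height of the 14 peaks was 34.5. Of the 7 corepressor genes of GFI1, 6 had a label, RCOR2 being the exception, and the demethylase gene KDM1A had a peak of height 28. The median over the 6 peaks was 26, and HDAC1 had the highest, with 34, whereas RCOR1 and RCOR3 both had 26. Of the 13 genes of NuRD, 9 had a label, with the highest peaks at GATAD2B (55), GATAD2A (48) and MTA2 (37). CHD4, the remodelling enzyme, had peaks of heights 23 and 18. With the apex rule the number of NuRD genes was 11. The median height of the 12 labelled NuRD peaks was 25.5, against 26 for all labelled peaks of the list of binding sites. Of the 6 genes of the CtBP group of ZEB2, 5 had a label. Its 3 highest peaks, at HDAC1, KDM1A and RCOR1 (26), also belong to the GFI1 list. Another, at CTBP1, was 16 high and 3969 bp wide, wider than 99.6% of all peaks. ZFPM1, a cofactor of GATA proteins, had a labelled peak of height 27, and ZFPM2 had none. Some genes, such as HDAC1, stand in more than 1 of these lists. Counted once, and with the 10 paralogs, 23 of 44 genes had a label, 52.3% against the 29.9% of all protein-coding genes. No test was made of these counts, and genes that are active in most cells were not set apart from the others.

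**Figure D3:**
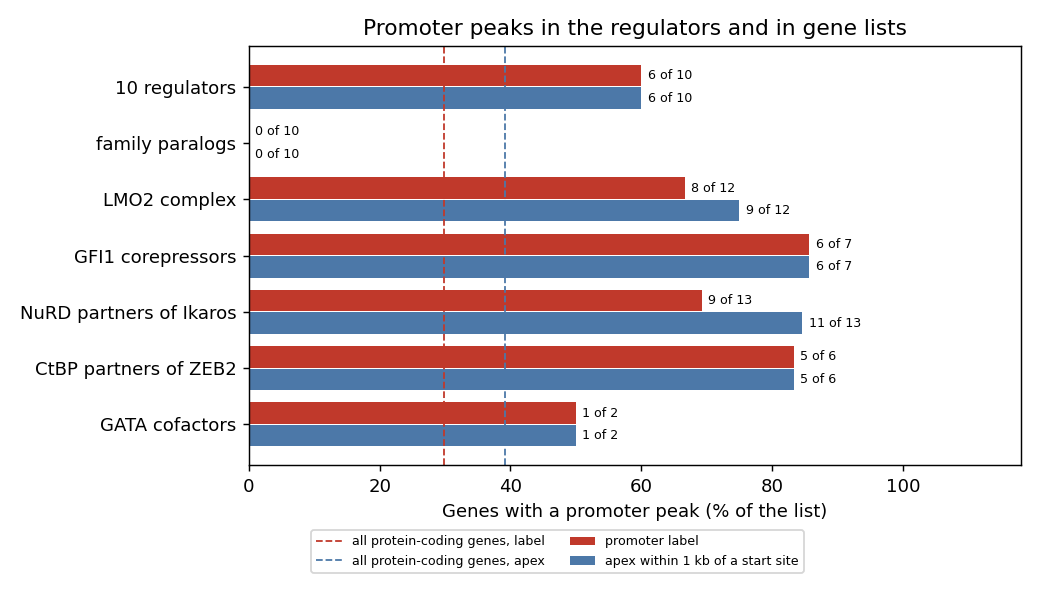
Share of genes (%) with a promoter label (red) and with a peak apex within 1 kb of a start site (blue) in the 10 regulators and in each list, with the counts beside the bars and the shares over all protein-coding genes as dashed lines at 29.9% and 39.2%. The 10 family paralogs stand at 0 on both measures, and the other lists lie above both lines.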

How the data were processed

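Per the authors' methods, reads were trimmed (Trimmomatic) and mapped to hg19 (Bowtie2). PCR duplicates (Samtools) and reads in blacklisted regions (Bedtools) were taken out. SEACR called peaks over the paired control, and peaks that recurred in both replicates (IDR below 0.05) made the list. The columns name no sample. The list was assigned to the anti-PML::RARA antibody and induced cells from the study's methods and its number of peaks. The deposited values are a column named summit, read here as the total signal of the peak, and a SEACR score, read here as its largest signal and called its height. Neither column name states this reading. The summit column ran from 805 to 139582 and the SEACR score from 13 to 87, and the column with the larger values was read as the total. In all 15412 peaks the total was below the largest signal times the width. This would also hold with the columns exchanged, so it does not tell them apart. Normalization of the signal and the origin of the value from 1 replicate or from both are not given in the sources used here. The authors deposited promoter labels from UCSC known genes of hg19.

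Distances, exons and start sites came from GENCODE release 44 on GRCh37, where no peak ran past a chromosome end. The apex was the midpoint of the interval of largest signal. In 34 peaks, none of the 13, its start was used. No test was made, since the list has no replicate values. The members and gene lists were chosen with earlier results of these data known. The rule named all 10 genes with their peaks, the 3 highest peaks of each list and labelled neighbours within 50 kb. Other genes and peaks were named after their values were seen, as were the stretches of sequence. Promoter sequences of another build were not used. The motif search and the choice of peaks were tested on simulated data. Alternatives were another link of peak to gene, stricter thresholds, other distances, merging of neighbours, 1 value per gene, other backgrounds and other window sizes. Analyses used Python 3.11.15, pandas 2.3.3, numpy 2.4.6, pysam 0.24.0, matplotlib 3.10.9 and samtools 1.23.1.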

Additional observations from a re-analysis of the deposited data

How the results depend on the processing

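No paired analysis was possible because each peak carries a single value that cannot be split by replicate, and leaving out a replicate could not be done either. Depth per library is unknown. Among peaks at or above the median height of 25, the number of labelled genes was 3 in place of 6, and it was also 3 at or above the median width of 829.5 bp, which shortens the list by construction. Counted by an apex within 1 kb of a start site it was 6. The number of nearby unlabelled peaks was 1 within 10 kb, 3 within 25 kb, 12 within 100 kb, 3 at or above the median height and 4 with neighbouring peaks merged, against 4 as reported, and merging left 7 of the 9 labelled peaks. The median over the labelled peaks was 7.21 when total signal per base replaced height, against 9.08 for all labelled peaks. It was 27 with the highest peak of each gene, and the median width was 1027 bp with the widest, against 1145.5 bp for all labelled genes. The share of windows with an ETS site was 23.1% (exact Clopper-Pearson interval 5.04 to 53.8%, counting error only), 7.69% within 100 bp and 23.1% within 300 bp. The interval treats the 13 windows as separate draws, although 5 of them come from the LMO2 locus. It therefore cannot be read as the uncertainty of the share. Ranked among peaks of the same label status in place of all peaks, 17 of 26 percentiles of height and width were lower and 9 were higher. Counting list genes by the apex, chosen after seeing the data, gave 26 of 44 in place of 23.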
